A study of Mus musculus with 140 samples.

Results

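The data described here are 8 RNA libraries from peritubular capillaries of the mouse kidney cortex, 4 from mice examined 24 h after cecal ligation and puncture (CLP) and 4 from mice examined 24 h after a sham operation. They were chosen by their labels (compartment, time and disease state) from 140 libraries in all, of which 28 are of peritubular capillaries. All mice were wild-type (WT) males of the strain C57BL6/OlaHsd, and the labels name no other allele, agent or treatment in either group. The 140 libraries come from 28 mice in 7 groups of 4 (healthy mice at 0 h, and CLP or sham mice at 4, 24 and 72 h), each mouse giving arterioles, glomeruli, peritubular capillaries and venules by laser microdissection, and whole kidney without it. Libraries were made with Lexogen QuantSeq, which reads near the 3′ end of polyadenylated RNA, and the deposited values are raw counts per gene. The series was made to follow changes in gene expression of the renal microvasculature during sepsis-induced acute kidney injury.

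In CLP the cecum is tied off and punctured so that gut bacteria leak into the abdomen, which gives polymicrobial sepsis, whereas sham mice are operated on without this injury. Peritubular capillaries are the fenestrated vessels that run between the tubules of the cortex, carry away what the tubules reabsorb and lie against the basal side of the proximal tubule. In sepsis, cytokines switch on acute-phase genes in the liver and, for several of these genes, in the kidney tubule as well, and sick animals that stop eating turn to fatty acids as fuel, a programme run in kidney and liver largely by the nuclear receptor PPARα.

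Endothelial transcripts were a small part of these libraries and proximal tubule transcripts a large one. The 15 general endothelial markers took 0.0544 to 0.134% of the counts of the 4 CLP libraries and 0.0759 to 0.114% of those of the 4 sham libraries. Their median share over all 8 libraries was 0.0814%, against 0.0692% in whole kidney, 0.132% in venules, 0.583% in glomeruli and 0.594% in arterioles of the same mice. The 18 proximal tubule markers had a median share of 10.1%, against 6.77% in whole kidney. Endothelial genes were not absent, since none of the 15 was at 0 in all 8 libraries, and Kdr, the main VEGF receptor, had 115, 205, 0.141 and 90 CPM (counts per M of scaled library total, M for mega) in CLP libraries, against 98.9, 153, 58.1 and 143 CPM in sham libraries. By these markers the libraries labelled peritubular capillaries are cortex rich in proximal tubule, and a difference between groups cannot be assigned to the endothelium. Fewer cells of a type and less RNA per cell cannot be told apart in them either.

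The libraries held 4.24 to 11.6 M counts in CLP mice and 7.24 to 16.3 M in sham mice, and 6670 ± 1006 genes in CLP mice, against 7785 ± 956 in sham mice, had at least 1 count (SD, n = 4 each). The difference in genes was within what relabelling the 8 libraries gives (exact permutation test, two-sided, p = 0.143, adjusted over 4 library measures 0.4; the smallest p possible is 0.0286). Of the 14623 genes counted in at least 1 of the 8 libraries, only 2163 (14.8%) were counted in all 8. Among counted genes, 87.4 to 92.8% had 5 counts or more in these libraries, against 61.8 to 78.8% in the healthy and 4 h libraries of the same compartment, which held 10950 to 13327 genes. A gene in the 24 h libraries was therefore often at 0 in one mouse and well counted in the next, and log2 CPM correlated between any 2 of the 8 libraries at only 0.432 to 0.664 (Pearson, across the 2163 genes, which are not independent replicates). For this reason results are given first for each library, and genes counted in all 8 are preferred. The cause of the low number of genes at 24 and 72 h was not tested.

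**Figure D1:**
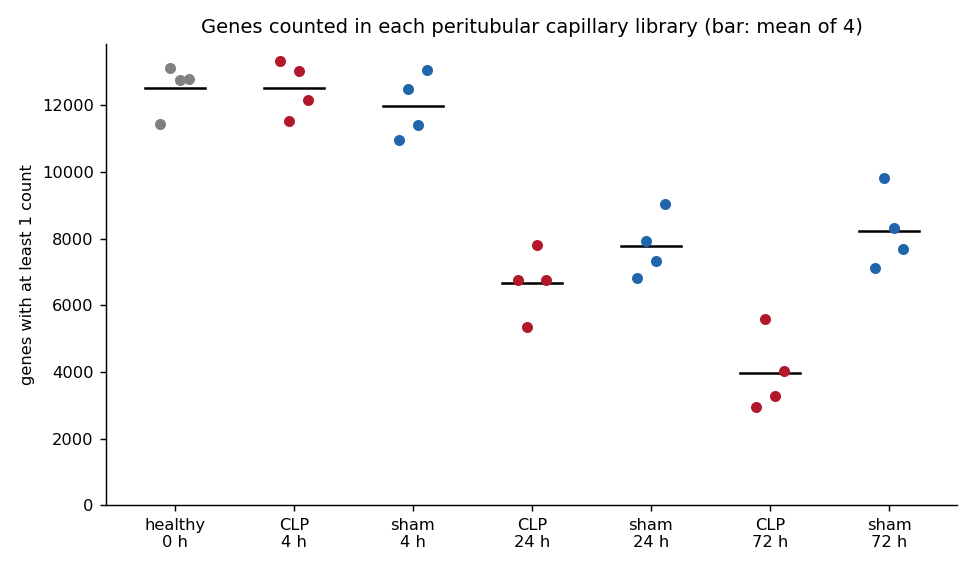
Number of genes with at least 1 count (y axis) in each of the 28 peritubular capillary libraries, by group and time (x axis); points are libraries, bars the mean of 4. The 24 h CLP libraries averaged 6670 genes and the 24 h sham libraries 7785, and all 16 libraries of 24 and 72 h lay below the 12 libraries of 0 and 4 h.

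Only 6 of 11772 genes tested passed an adjusted p under 0.05 (edgeR quasi-likelihood test with Benjamini-Hochberg adjustment), which is 0.051% of them, with 4 higher in CLP mice (0.034%) and 2 lower (0.017%). An unadjusted p under 0.05 was reached by 2267 genes. The 4 that were higher are the acute-phase genes Saa1, Fgg and Lcn2, and Malsu1, which encodes a mitochondrial ribosome assembly factor. The 2 that were lower are Slc34a1, the sodium-phosphate cotransporter of the proximal tubule brush border, and Gm22748, annotated as a small nucleolar RNA. The acute-phase genes had more than 100 CPM in most CLP libraries, against no or almost no reads in sham libraries, and Slc34a1 fell by 1.46 on the log2 scale. Slc34a1 and Gm22748 passed whichever of the 8 libraries was left out, whereas Saa1 and Lcn2 no longer passed without CLP replicate 2 or 4 or any sham library, Fgg without CLP replicate 2 or 4 or sham replicate 1, 3 or 4, and Malsu1 without CLP replicate 1 or any sham library (highest adjusted p 0.152 for Saa1, 0.167 for Lcn2 and Fgg and 0.177 for Malsu1). DESeq2 on the same 28 libraries called 1830 genes, 685 higher and 1145 lower in CLP mice, and the cause of the gap to edgeR was not tested. Among its calls were genes at 0 in a whole group, with very large log2 fold changes. Nolc1, at 0 in all 4 CLP libraries, had -26.03, and Spin1, with no count in sham libraries, had 22.83.

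Saa1 encodes serum amyloid A1, an apolipoprotein of the acute phase, and lies at chr7:46740497-46742980 on the minus strand (GENCODE M21, build GRCm38). It had 100.5, 581.5, 205 and 636.8 CPM in CLP libraries and no count in any sham library. The groups did not overlap, and the CLP mean of 381 ± 268 CPM (SD, n = 4) was at least 1290-fold above the sham floor of 3 counts per library (adjusted p = 0.0241). Saa1 has close paralogs next to it, and how reads that match more than 1 of them were counted is not given in the sources used here. Saa3, one of these, had 12.91, 19.96, 57.69 and 128.8 CPM in CLP libraries and none in sham libraries, short of the threshold (adjusted p = 0.112). In whole kidney of the same mice both were higher in CLP mice (adjusted p = 0.000466 for Saa1 and 2.3e-07 for Saa3).

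Fgg encodes the gamma chain of fibrinogen, the clotting protein that thrombin turns into fibrin, and lies at chr3:83007724-83015049 on the plus strand. It had 14.09, 707.4, 200.4 and 931.7 CPM in CLP libraries, against 0, 0.478, 0 and 0 CPM in sham libraries. All sham reads were 3 counts in 1 library, which puts the ratio of the group means at 3870 with a 95% counting interval of 1330 to 18800 (adjusted p = 0.0425). The neighbouring gene Fga, for the alpha chain, had 143.9, 338.4, 181.1 and 615.1 CPM in CLP libraries, against 0, 0, 36.96 and 16.6 CPM in sham libraries. Its groups did not overlap either, but it did not pass here (log2 fold change 4.58 ± 1.97 (SE), adjusted p = 0.146), whereas in whole kidney both chains were higher in CLP mice (6.10 ± 0.72 for Fgg and 4.76 ± 0.51 for Fga, adjusted p = 6.96e-06 and 1.8e-06).

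Lcn2 encodes lipocalin 2 (NGAL), an iron-siderophore binding protein and a widely used marker of kidney injury, and lies at chr2:32384633-32388252 on the minus strand. It had 0, 242.2, 220.6 and 511.3 CPM in CLP libraries and no count in sham libraries. One CLP mouse, replicate 1, was thus like the sham mice, and the mean of 243.5 ± 209.4 CPM (SD, n = 4) was at least 825-fold above the sham floor (adjusted p = 0.0448). Replicate 1 also had the lowest values of Saa1 and Fgg and the fewest genes of the 4. Lcn2 is made by neutrophils as well and is itself 1 of the 15 neutrophil markers, whose summed share was 0, 0.0298, 0.0322 and 0.0782% in CLP libraries, against 0, 0, 1.06e-05 and 6.13e-06% in sham libraries. Of the others, S100a8 was counted in 2 CLP libraries (76 and 1.91 CPM), S100a9 in 1 (62.1 CPM), and 12 of the 15 were at 0 in every CLP library, against 13 in every sham library. In whole kidney the median share of the 15 was 0.0453% in CLP mice and 0.00148% in sham mice, and the part of neutrophils in the Lcn2 result was not tested.

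The starts of these genes are shown because they are the 3 acute-phase genes that passed the test. Each is 300 bases from 250 before to 50 after the transcription start, 5′ to 3′ along the gene, from RefSeq on GRCm38.p6, at chr7:46742931-46743230 (minus strand) for Saa1, chr3:83007474-83007773 (plus strand) for Fgg and chr2:32387690-32387989 (minus strand) for Lcn2. Capitals mark matches, on either strand, to the C/EBP motif TTGCNNAA.
Saa1: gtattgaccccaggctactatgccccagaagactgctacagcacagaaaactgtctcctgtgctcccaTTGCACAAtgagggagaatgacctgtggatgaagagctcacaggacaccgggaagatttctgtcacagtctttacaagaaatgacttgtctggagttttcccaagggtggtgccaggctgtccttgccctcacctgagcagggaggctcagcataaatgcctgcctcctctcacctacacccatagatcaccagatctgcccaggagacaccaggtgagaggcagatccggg
Fgg: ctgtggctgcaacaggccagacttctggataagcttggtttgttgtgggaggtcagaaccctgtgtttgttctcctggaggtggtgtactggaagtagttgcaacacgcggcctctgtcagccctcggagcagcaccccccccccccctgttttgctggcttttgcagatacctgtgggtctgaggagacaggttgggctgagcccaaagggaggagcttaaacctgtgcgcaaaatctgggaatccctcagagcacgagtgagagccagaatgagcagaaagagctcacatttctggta
Lcn2: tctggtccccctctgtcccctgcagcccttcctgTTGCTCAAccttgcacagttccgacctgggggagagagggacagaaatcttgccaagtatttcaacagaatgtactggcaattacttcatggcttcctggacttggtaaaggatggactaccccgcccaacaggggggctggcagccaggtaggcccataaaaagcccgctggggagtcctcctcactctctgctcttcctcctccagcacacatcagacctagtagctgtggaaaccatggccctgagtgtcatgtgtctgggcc
C/EBP, STAT and NF-kB factors are the classical regulators of acute-phase genes. The C/EBP letters occur once in the Saa1 and once in the Lcn2 window and not in the Fgg window, against 10.8% of 32851 windows of this length. Neither the STAT motif TTCNNNGAA, present in 8.3% of windows, nor the NF-kB motif, present in 4.51%, occurs in any of the 3. A match is a description of the letters and not evidence of binding. Equally, the lack of an exact match within 300 bases does not show that a site is absent.

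Malsu1 passed on fewer mice than the acute-phase genes. It had 453.9, 42.86, 0 and 0 CPM in CLP libraries and no count in sham libraries (adjusted p = 0.0425). The groups overlap, since 2 CLP libraries were also at 0. In whole kidney of the same mice Malsu1 averaged 49.3 ± 9.61 CPM in CLP mice and 51.41 ± 6.64 CPM in sham mice (SD, n = 4 each), with a log2 fold change of -0.06 ± 0.15. In healthy peritubular capillaries it averaged 42.66 CPM.

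Slc34a1 was the gene with the smallest adjusted p. It encodes NaPi-IIa, which reclaims most of the filtered phosphate, and lies at chr13:55398187-55415592 on the plus strand. It had 4368, 2382, 2310 and 1404 CPM in CLP libraries, against 7213, 8260, 5578 and 7802 CPM in sham libraries. Every CLP value lay below every sham value, and the means were 2616 ± 1250 CPM in CLP mice and 7213 ± 1171 CPM in sham mice (SD, n = 4 each), a log2 fold change of -1.46 ± 0.26 (SE, adjusted p = 0.000527). The same gene was lower in CLP mice in venules (-1.27 ± 0.18, adjusted p = 5.91e-06) and in whole kidney (-0.99 ± 0.16, adjusted p = 0.000113). The change in peritubular capillaries did not differ detectably from that in whole kidney (difference -0.52, adjusted p = 1). At 72 h the means were 3371 ± 612 CPM in CLP mice and 9189 ± 1037 CPM in sham mice, and the change at 24 h differed from that at 72 h by -0.02 ± 0.36 (adjusted p = 1).

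Gm22748 lies at chr12:17546146-17546281 on the plus strand. It had 567.6, 63.84, 99.48 and 150 CPM in CLP libraries, against 1248, 5922, 3641 and 997.3 CPM in sham libraries. The groups did not overlap (log2 fold change -3.74 ± 0.70, adjusted p = 0.00735), and whole kidney showed the same direction (-2.60 ± 0.57, adjusted p = 0.00693). Reads at a small nucleolar RNA in a poly(A)-primed library may include those of an overlapping transcript, which counts alone cannot tell apart.

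**Figure D2:**
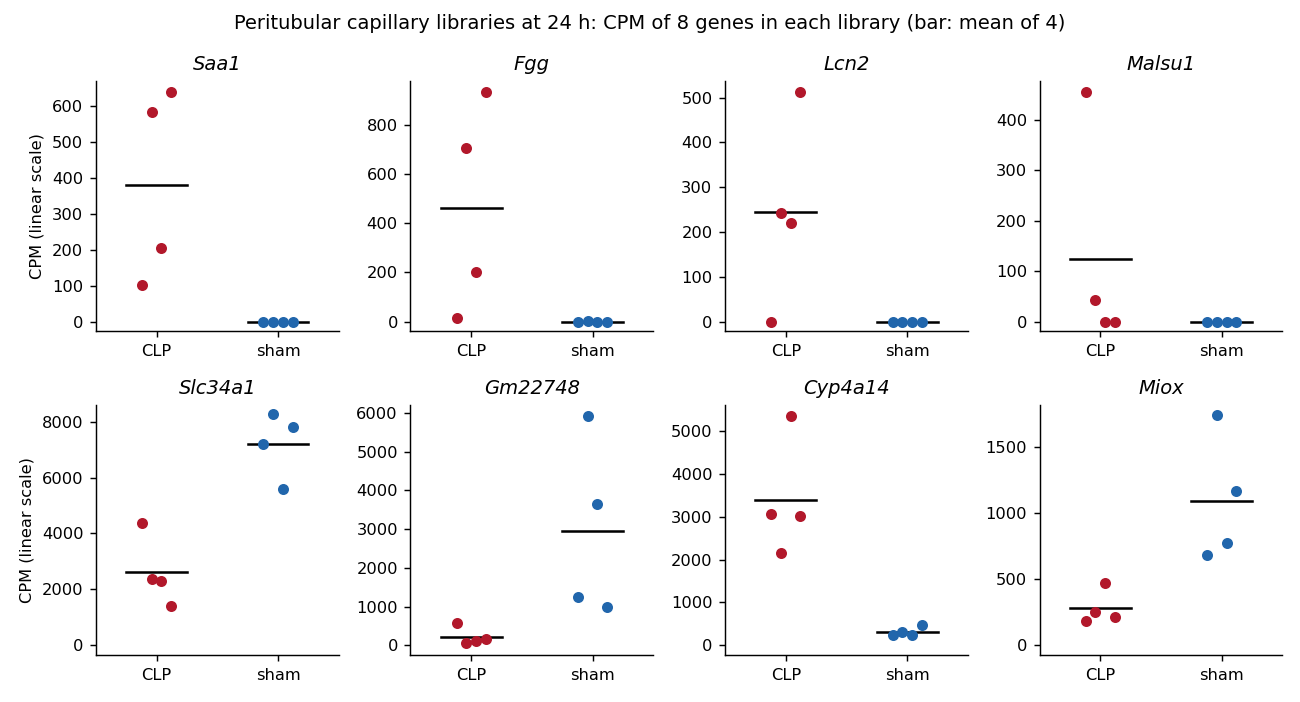
CPM (y axis, linear scale) of the 6 genes that passed and of Cyp4a14 and Miox in each of the 4 CLP and 4 sham libraries at 24 h; points are libraries, bars the mean of 4. Saa1 and Fgg were high in most CLP libraries and at or near 0 in sham libraries, Malsu1 rests on 2 CLP libraries, and in Slc34a1, Gm22748, Cyp4a14 and Miox the groups did not overlap.

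Among the 2123 tested genes counted in all 8 libraries at a mean of 20 CPM or more, 38 had all CLP values above all sham values (1.79%) and 74 had all CLP values below all sham values (3.49%). Whole kidney, a separate library from each of the same mice, showed the same sign for 30 of the 38 and 59 of the 74. Of the 38, 14 were also called higher in whole kidney and 0 lower, and of the 74, 25 were called lower and 0 higher, where 3.04% of all 14936 genes tested in whole kidney were called higher and 2.24% lower. Those shares cover low-count genes too, unlike the 38 and 74, so they are not a like-for-like background. The 2 readouts share the mice, so they are separate libraries but not separate animals. Of all these genes only Slc34a1 and Gm22748 passed the test across all genes in peritubular capillaries.

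The 12 with the largest differences upward were led by Cyp4a14, a fatty acid omega-hydroxylase, and held Ucp2, a mitochondrial carrier, Vnn1, a pantetheinase, Eci2, an enoyl-CoA isomerase, Slc43a3, a purine transporter, and Cyp2d9, a male-predominant cytochrome P450 of the mouse. Cyp4a14 had 3057, 2146, 5354 and 3013 CPM in CLP libraries, against 238.2, 308.3, 239.9 and 471.6 CPM in sham libraries. The groups lay far apart, with a log2 fold change of 3.43 ± 1.04 (adjusted p = 0.112), and the change was 3.53 ± 0.79 in whole kidney (adjusted p = 0.00822). It passed when the 8 libraries of 24 h were fitted alone (adjusted p = 8.22e-08) or with those of 72 h (1.2e-06), and in the fit of 8 so did Cyp4a10 (0.00174), Vnn1 (0.0265) and Cyp2d9 (0.0335). Over the 18 alternative settings Cyp4a14 passed in 6, Cyp4a10 and Vnn1 in 3 each and Cyp2d9 in 2. None of these genes passed when each of the 8 libraries was left out in turn. Cyp2d9 had 865.8, 1317, 1698 and 1156 CPM in CLP libraries, against 214.2, 287.5, 454.5 and 77.57 CPM in sham libraries. Its log2 fold change was 2.28 ± 1.15 here and 1.7 ± 0.28 in whole kidney. The other members of the 12 (Cnppd1, Arl1, Hp1bp3, Selenoo, Zfp592 and Tmem160) had log2 fold changes of 2.08 to 3.19 here and of -0.20 to 0.35 in whole kidney, where none passed.

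The 12 with the largest differences downward were led by Gm22748. They held Inmt, a methyltransferase of indolamines, Cyp2j13, an epoxygenase, Slc22a28, an organic anion transporter, Igfbp5, a binding protein of insulin-like growth factors, and Palld, an actin-binding protein. Cyp2j13 had 72.58, 41.61, 40.95 and 95.35 CPM in CLP libraries, against 501, 375.9, 479 and 274.2 CPM in sham libraries, a log2 fold change of -2.70 ± 0.94 (adjusted p = 0.112). Inmt had 69.2, 121.6, 310.3 and 46.29 CPM in CLP libraries, against 491.2, 324.3, 538.9 and 1308 CPM in sham libraries. Both were lower in whole kidney of CLP mice as well (-1.95 ± 0.19 and -1.53 ± 0.21, adjusted p = 7.42e-08 and 9.45e-06). Igfbp5 had 70.61, 20.99, 54.03 and 14.56 CPM in CLP libraries, against 227, 808.6, 274 and 132.7 CPM in sham libraries, and Palld had 1.811, 36.55, 9.287 and 27.57 CPM against 147.5, 196.1, 76.07 and 183.3 CPM. In whole kidney Igfbp5 had -0.61 ± 0.30 and Palld 0.00 ± 0.15, neither past the test.

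**Figure D3:**
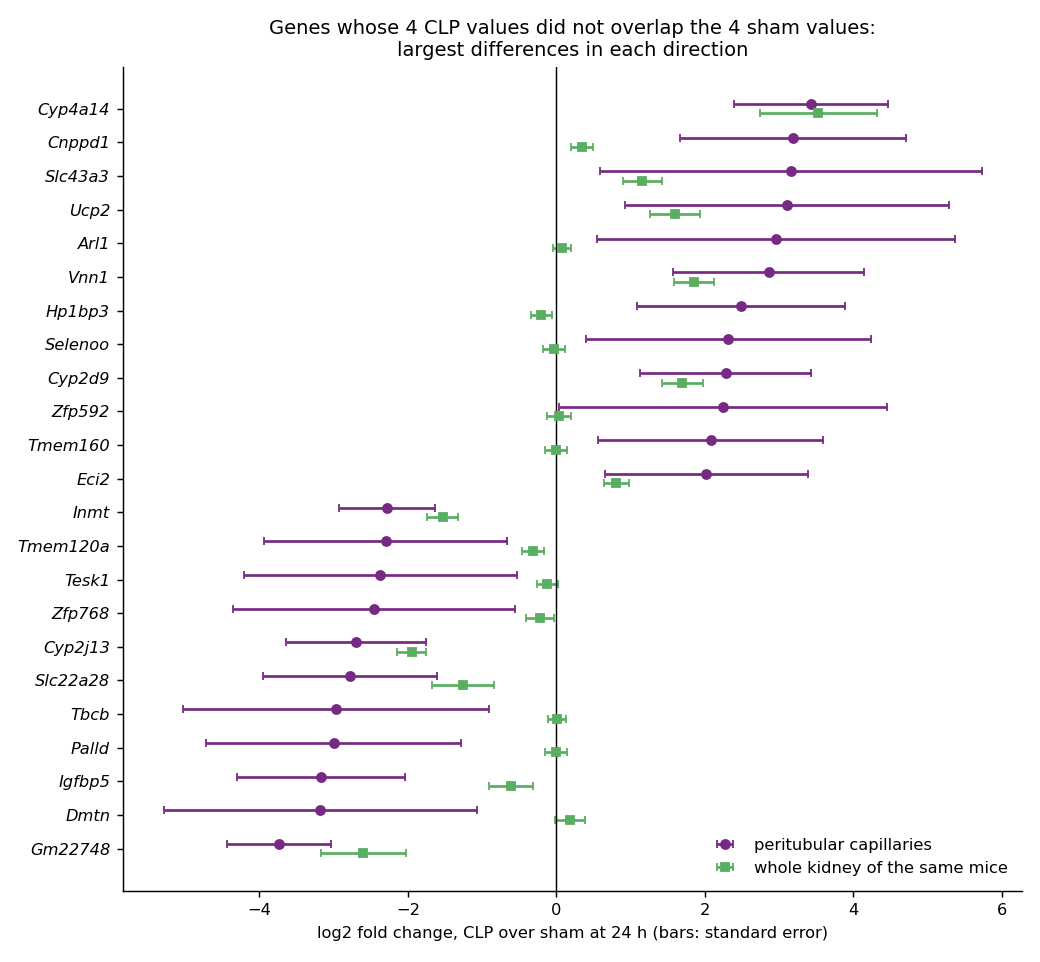
Log2 fold change of CLP over sham at 24 h (x axis) with its standard error, in peritubular capillaries (circles) and in whole kidney of the same mice (squares), for the 12 largest differences upward and 11 of the 12 largest downward among genes whose groups did not overlap. The metabolic genes at the top and bottom (Cyp4a14, Vnn1, Cyp2d9, Cyp2j13, Inmt) had the same sign in both, while genes such as Hp1bp3, Palld and Dmtn had whole kidney values near 0.

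Genes of fatty acid use had higher summed counts in CLP libraries. In the list of 34 fasting and PPARα targets, 31 were tested, none passed, 22 had a positive and 8 a negative log2 fold change, and 7 had CLP values all above sham values and 0 below. Over all 11772 tested genes 43.1% had a positive and 52.8% a negative log2 fold change, 0.722% had CLP values all above and 1.95% all below sham values, and among the well-counted 2123 these shares were 1.79 and 3.49%. The median log2 fold change was 1.06, against -0.13 over all tested genes, and among the 24 members counted in all 8 libraries it was 0.98, against -0.10. Their summed share of counts was 2.15, 1.57, 2.56 and 2.06% in CLP libraries, against 0.511, 0.78, 0.713 and 0.929% in sham libraries. Every CLP library was above every sham library. Cyp4a10 and Cyp4a14 weigh heavily in this sum, with means of 4402 and 3393 CPM in CLP libraries, against 1088 and 314.5 CPM in sham libraries. In whole kidney 19 of 32 tested members were called higher, against 3.04% of all genes tested there, and 0 lower. The list was written with earlier results of these data known, so it is not independent evidence of its direction.

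Cyp4a14, Ucp2, Cyp4a10, Vnn1 and Cpt2 were among the 7 members that did not overlap. Cyp4a10, a second omega-hydroxylase, had 6210, 3590, 4870 and 2930 CPM in CLP libraries, against 665, 1540, 1040 and 1110 CPM in sham libraries (log2 fold change 2.02 ± 1.01, adjusted p = 0.288). The Cyp4a genes are close paralogs that can share reads. Vnn1 had 499.6, 550.5, 1241 and 409.1 CPM in CLP libraries, against 77.82, 54.37, 88.42 and 149.9 CPM in sham libraries. Cpt2, which brings acyl groups into mitochondrial beta-oxidation, had 338, 338, 578 and 450 CPM in CLP libraries, against 93.8, 1.12, 167 and 323 CPM in sham libraries.

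Not every member of the list was higher. Acadm, the medium-chain acyl-CoA dehydrogenase of mitochondrial beta-oxidation, had 191, 284, 623 and 73.7 CPM in CLP libraries, against 228, 1060, 179 and 575 CPM in sham libraries. Acaa2, Acsl1, Cd36 and Cpt1a had log2 fold changes of -0.27, -0.44, -0.25 and -0.02, and Ppara itself had 0, 45.2, 211 and 25 CPM in CLP libraries, against 211, 316, 250 and 181 CPM in sham libraries (-1.77 ± 1.10, adjusted p = 0.455). Hadha, a subunit of the mitochondrial trifunctional protein, was high in 2 CLP libraries, with 1040, 92.9, 1160 and 334 CPM in CLP libraries, against 48.2, 154, 167 and 172 CPM in sham libraries (2.28 ± 1.06, adjusted p = 0.198).

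**Figure D4:**
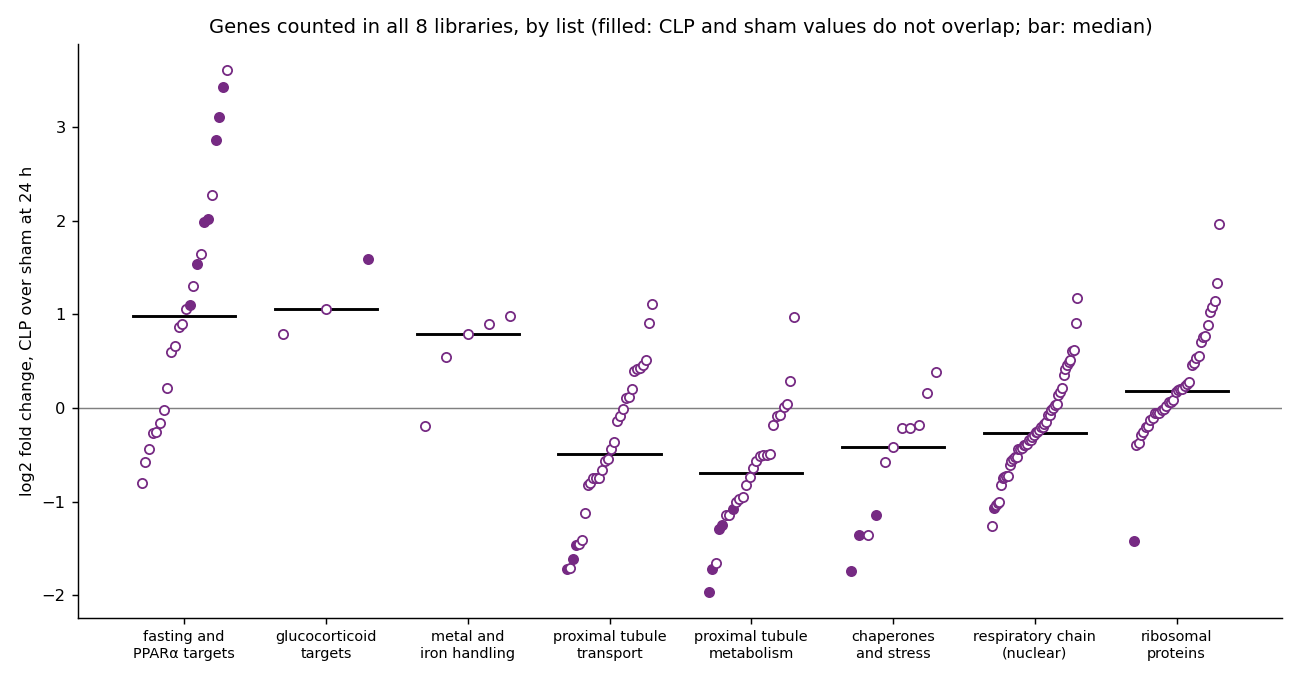
Log2 fold change of CLP over sham at 24 h (y axis) of the members of 8 gene lists (x axis) that were counted in all 8 libraries; each circle is a gene, filled where the CLP and sham values did not overlap, and bars are medians. Fasting and PPARα targets had a median of 0.98 with 7 filled circles above 0, while proximal tubule transport and metabolism had medians of -0.49 and -0.69 with filled circles only below 0.

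Most proximal tubule genes had negative log2 fold changes in CLP libraries. Of 36 transport genes tested, 1 was called lower (Slc34a1) and 0 higher, 24 had a negative and 11 a positive log2 fold change, 4 did not overlap downward and 0 upward, and the median was -0.55. Over all tested genes 0.017% were called lower, and 1.95% did not overlap downward and 0.722% upward (3.49 and 1.79% of the well-counted 2123). Of 37 metabolism genes tested, none passed, 26 were negative and 11 positive, 6 did not overlap downward (1.95% over all tested genes, 3.49% of the 2123) and 0 upward (0.722 and 1.79%), and the median was -0.57. The summed share of the transport genes was 3.44, 3.34, 2.98 and 2.52% in CLP libraries, against 3.86, 3.75, 3.44 and 3.77% in sham libraries. That of the metabolism genes overlapped, at 10.5, 8.1, 10.4 and 6.57% in CLP libraries, against 9.65, 11.2, 10.9 and 12.7% in sham libraries. The share of the proximal tubule markers was 6.05 to 10.1% in CLP libraries and 9.36 to 12.5% in sham libraries, which overlap, and the part of cell content in these gene differences was not tested. With the scaling of DESeq2 (RLE) in place of TMM the median log2 fold change of genes counted in all 8 libraries is 0.20 rather than -0.10, and the medians of the transport and metabolism lists become -0.24 and -0.31 and that of the fasting list 1.41.

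Among the transporters, Slc22a8, the basolateral organic anion transporter OAT3, had 86.36, 181.8, 203.7 and 163.3 CPM in CLP libraries, against 451.7, 472.9, 295 and 721.5 CPM in sham libraries (log2 fold change -1.61 ± 0.68, adjusted p = 0.131). Slc7a13, an aspartate and glutamate transporter of the late proximal tubule, had 243, 83.73, 147.3 and 0 CPM in CLP libraries, against 640.3, 573.2, 337.8 and 400.9 CPM in sham libraries, with -2.04 ± 0.73 here and -2.68 ± 0.30 in whole kidney (adjusted p = 0.112 and 1.96e-06). Slc26a1, a sulfate exchanger, was the fourth that did not overlap. Slc22a6, the anion transporter OAT1, had a positive log2 fold change of 0.40 ± 0.47.

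Among the enzymes, Miox, which breaks down myo-inositol and is made almost only in the proximal tubule, had 183.7, 254.1, 474.6 and 214.3 CPM in CLP libraries, against 685.6, 1745, 773.2 and 1168 CPM in sham libraries. The groups did not overlap (log2 fold change -1.96 ± 0.48, adjusted p = 0.0732). Acsm2, an acyl-CoA synthetase, had 3441, 3064, 2473 and 2321 CPM in CLP libraries, against 5815, 6566, 5601 and 5880 CPM in sham libraries, with a tight spread in both groups (-1.08 ± 0.27, adjusted p = 0.104). When the fit of 28 libraries held only genes counted in all 8 libraries, Miox and Acsm2 passed (adjusted p = 0.044 and 0.0447). Over the 18 alternative settings Miox passed in 2 and Acsm2 in 1. Neither passed when each of the 8 libraries was left out in turn. Keg1, Akr1c21, Cyp2j5 and Odc1 had groups that did not overlap, with log2 fold changes of -1.72, -1.25, -1.29 and -2.76. All 6 were lower in whole kidney of CLP mice too (adjusted p from 6.9e-06 to 0.0423 there). Kap, which the proximal tubule makes under androgen control and the most abundant gene here, had 52500, 30258, 47256 and 17364 CPM in CLP libraries, against 40939, 60223, 51966 and 65800 CPM in sham libraries, and the groups overlap (-0.57 ± 0.27, adjusted p = 0.238).

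Further along the nephron, the 8 distal tubule markers all had negative log2 fold changes, with a median of -1.29, 0 called and 2 that did not overlap, all below (1.95% over all tested genes). Their summed share was 0.0838, 0.198, 0.168 and 0.192% in CLP libraries, against 0.316, 0.214, 0.238 and 0.215% in sham libraries, with no overlap. Pvalb, the calcium-binding parvalbumin of the early distal tubule, had 0, 0, 0.281 and 0 CPM in CLP libraries, against 93, 21.7, 47.9 and 24.5 CPM in sham libraries (adjusted p = 0.112), but a log2 fold change of -0.65 in whole kidney (adjusted p = 0.413). Of the 8 loop of Henle markers 3 were positive and 5 negative, yet their summed share was 0.232, 0.589, 0.476 and 0.646% in CLP libraries, against 0.4, 0.275, 0.327 and 0.204% in sham libraries, with overlap. Of the 12 collecting duct markers 2 were positive and 10 negative, and their share of 0.0355 to 0.102% in CLP libraries overlapped with 0.0158 to 0.0774% in sham libraries. None of these markers was called.

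Of 26 stress and unfolded protein response genes tested, none passed, 7 were positive and 18 negative (12 and 13 with RLE scaling), and 3 did not overlap downward (1.95% over all tested genes) and 1 upward (0.722%). Their summed share was 0.348, 0.517, 0.543 and 0.66% in CLP libraries, against 0.644, 0.925, 0.7 and 0.781% in sham libraries, and the groups overlap. The 3 below are chaperones of the endoplasmic reticulum. Calr, a calcium-binding chaperone, had 394.9, 1429, 647.3 and 1255 CPM in CLP libraries, against 1578, 2986, 1531 and 2110 CPM in sham libraries (log2 fold change -1.14 ± 0.47, adjusted p = 0.129). Canx, its membrane-bound partner, had 369, 362, 347 and 513 CPM in CLP libraries, against 779, 1720, 830 and 746 CPM in sham libraries, and Pdia3, the disulfide isomerase that works with both, had 122, 121, 343 and 122 CPM in CLP libraries, against 778, 827, 380 and 377 CPM in sham libraries (adjusted p = 0.21 for Canx and 0.237 for Pdia3). In whole kidney of the same mice these 3 genes had -0.07, -0.12 and -0.19, and none passed. The 1 member above was Gdf15, a stress-induced cytokine, with 4.64, 20.8, 20.3 and 24.6 CPM in CLP libraries and no count in sham libraries.

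Mitochondrial transcripts made up overlapping shares, 8.35 to 10.2% of counts in CLP libraries and 8.32 to 11.4% in sham libraries for the 15 genes of the mitochondrial genome. Of the 10 that were tested none passed, and mt-Nd2 and mt-Nd4, both subunits of complex I, did not overlap downward. The gene mt-Nd2 had 1833, 5864, 2464 and 6487 CPM in CLP libraries, against 14035, 27547, 10346 and 14875 CPM in sham libraries (log2 fold change -2.0 ± 0.45, adjusted p = 0.112). The log2 fold change of mt-Nd4 was -0.32 here and -0.30 in whole kidney, those of the complex I genes mt-Nd1 and mt-Nd5 were -0.28 and -0.53, and mt-Nd2 had -0.13 ± 0.17 in whole kidney. Of the 55 nuclear-encoded respiratory chain genes tested, none passed, 38 were negative and 17 positive, and the median was -0.26, which is 0 with RLE scaling.

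**Figure D5:**
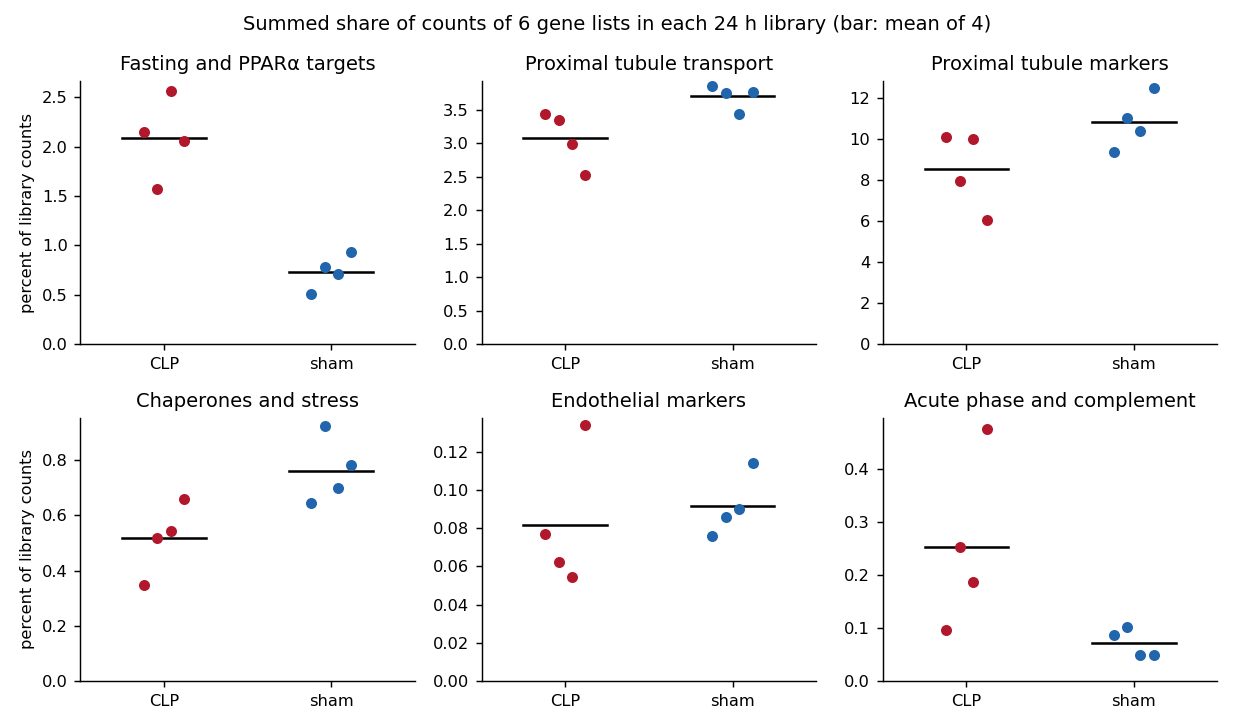
Summed share of library counts (y axis, percent) of 6 gene lists in each of the 4 CLP and 4 sham libraries at 24 h; points are libraries, bars the mean of 4. Fasting and PPARα targets averaged 2.09% in CLP and 0.733% in sham libraries without overlap, while the endothelial markers overlapped at 0.082% and 0.0914%.

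Genes that glucocorticoids switch on had a median log2 fold change of 1.59, and of 1.06 among the 3 members counted in all 8 libraries. Of 17 tested, 1 was called higher (Lcn2; 0.034% over all tested genes), and 14 were positive and 3 negative (43.1 and 52.8% over all tested genes). In 3 the CLP values lay all above and in 1 all below the sham values (0.722 and 1.95% over all tested genes). Their summed share was 0.201, 0.198, 0.137 and 0.526% in CLP libraries, against 0.0793, 0.0631, 0.112 and 0.093% in sham libraries, with no overlap. Klf9, a transcription factor induced by the glucocorticoid receptor, had 336.7, 442.1, 304.2 and 590.3 CPM in CLP libraries, against 68.91, 47.03, 200 and 238.3 CPM in sham libraries (log2 fold change 1.59 ± 0.64, adjusted p = 0.117). Per1, a clock gene that the same receptor induces, had 217.3, 61.72, 30.39 and 38.83 CPM in CLP libraries, against 0.239, 0, 0 and 0 CPM in sham libraries. Both had smaller values in whole kidney (0.31 ± 0.15 and 0.76 ± 0.30, not past the test). For Klf9 the difference from whole kidney was not detectable. Of the 18 members of the list tested in whole kidney, 10 were called higher and 0 lower, with a median of 1.31. Over all genes tested there 3.04% were called higher. The list shares Lcn2 with the acute-phase, injury and neutrophil lists, and the metallothioneins with metal handling.

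Metal and iron handling genes also took more of the counts, 0.717, 0.559, 0.52 and 0.905% in CLP libraries, against 0.434, 0.138, 0.438 and 0.477% in sham libraries. None of 13 tested members passed, 9 were positive and 4 negative. Most of this share is Fth1, the ferritin heavy chain, which had 4180, 3720, 3570 and 3800 CPM in CLP libraries, against 2620, 961, 2830 and 4000 CPM in sham libraries (0.55 ± 0.30, adjusted p = 0.334). Mt2, a zinc-binding metallothionein, had 159.8, 168.4, 152.9 and 601.9 CPM in CLP libraries, against 99.07, 0, 78.87 and 67.18 CPM in sham libraries, without overlap (2.14 ± 0.98, adjusted p = 0.187). Its paralog Mt1 had log2 fold changes of 0.04 to 1.29 over 18 alternative settings and passed in none of them. Of 12 injury markers tested, 1 was called higher (Lcn2; 0.034% over all tested genes), 9 were positive and 3 negative. One did not overlap upward (Spp1; 0.722% over all tested genes), and only 2 were counted in all 8 libraries. Spp1, osteopontin, had 223.3, 316.4, 247.8 and 852.8 CPM in CLP libraries, against 178.9, 47.51, 138.7 and 44.38 CPM in sham libraries (log2 fold change 2.00 ± 1.22, adjusted p = 0.431). Havcr1 (KIM-1), the apical injury marker of the proximal tubule, had 7.08, 3.16, 0 and 104 CPM in CLP libraries and no count in sham libraries (adjusted p = 0.112).

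In the wider acute-phase and complement list, 21 genes were tested, 2 were called higher (Saa1 and Lcn2), 12 were positive and 8 negative, and 4 did not overlap upward. Over all tested genes 0.034% were called higher and 0.722% did not overlap upward. The median log2 fold change of the 21 was 0.64. Only 2 members were counted in all 8 libraries, and both were negative (median -1.02). Lrg1, a leucine-rich acute-phase glycoprotein, had 231.8, 248.3, 327.3 and 749.1 CPM in CLP libraries, against 0, 0, 11.23 and 0 CPM in sham libraries. C3, the central component of complement, had 85.1, 332.6, 233.3 and 311.4 CPM in CLP libraries, against 0, 0, 24.7 and 0.122 CPM in sham libraries. Neither passed here (adjusted p = 0.112 and 0.115). C1qa, a complement gene of macrophages, had overlapping groups, with 18.9, 107, 0 and 128 CPM in CLP libraries, against 0, 1.43, 18.3 and 143 CPM in sham libraries.

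For coagulation and inflammation, which the title of the series names, these libraries gave few counts. Of 22 procoagulant genes 10 were at 0 in all 8 libraries, 12 were tested, and Fgg alone was called. Among 10 anticoagulant genes tested none passed, and Serpine2, a protease inhibitor that blocks thrombin, stood out with 172.4, 44.1, 86.82 and 236.3 CPM in CLP libraries, against 0, 0, 0.281 and 0 CPM in sham libraries (adjusted p = 0.112). Proc, protein C, had 343, 202, 296 and 315 CPM in CLP libraries, against 451, 307, 413 and 248 CPM in sham libraries (-0.30 ± 0.91). None of 7 fibrinolysis, 9 adhesion, 15 NF-kB response and 9 cytokine and chemokine genes tested passed, and 20 of 29 cytokine and chemokine genes were at 0 in all 8 libraries. Icam1, an adhesion molecule for leukocytes, had 0, 126, 95 and 0.693 CPM in CLP libraries, against 78.4, 0, 19.6 and 10.8 CPM in sham libraries, while in whole kidney it was higher in CLP mice (1.36, adjusted p = 0.00156). A change of that size was not detectable in peritubular capillaries, where the standard error for Icam1 was 2.07.

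Endothelial markers did not differ detectably. Of the 15 general endothelial markers 6 were positive and 9 negative, with a median of -0.35 (0.04 with RLE scaling) and no call, and of the 10 markers of peritubular capillary endothelium 5 were positive and 5 negative. Plvap, the diaphragm protein of fenestrated capillaries, had 42, 61, 116 and 142 CPM in CLP libraries, against 29.4, 133, 104 and 141 CPM in sham libraries (-0.17 ± 1.62). Igfbp7, the most abundant of the 10, had 914, 632, 230 and 243 CPM in CLP libraries, against 473, 157, 1040 and 257 CPM in sham libraries (0.07 ± 0.60). The standard errors, at 0.60 or more for each of these genes, leave room for sizeable changes in either direction. The lists of interferon response, immediate early, cell cycle, glycocalyx, barrier, vasoactive, capillary lipid uptake, oxidative stress and ribosomal protein genes held no called gene, and of the marker lists only that of the proximal tubule (Slc34a1) and that of neutrophils (Lcn2) held one.

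At the limit of detection, 9 genes had counts in all 4 CLP and no sham library, and 54 in all 4 sham and no CLP library. Beside Saa1, Saa3 and Gdf15 the 9 held Asb11, Gm15441, Noct, Crebzf, Spin1 and Zfp593, and 4 of the 9 were called higher in whole kidney (Saa1, Saa3, Gm15441 and Asb11). Of the 53 in the other direction that were measured in whole kidney, 1 was called lower there (Ldc1) and 1 higher. The larger number on the sham side goes with more counts and more genes in the sham libraries, and the part of library content in it was not tested. Hbb-bt, a beta-globin gene, was one of the 54, with 28.96, 61.86, 11.6 and 35.81 CPM in sham libraries, but its near-identical neighbour Hbb-bs had 73, 211, 88.8 and 196 CPM in CLP libraries, against 197, 56, 159 and 243 CPM in sham libraries.

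The change with CLP was set against that in the other compartments of the same 8 mice, with the mouse as a block. Against the mean of the 3 other microdissected compartments, 13 of 13635 genes differed (0.0953%), 4 with a higher and 9 with a lower log2 fold change in peritubular capillaries. Serpine2 was among the 4, and Hbb-bt, Neurl1b, Pkia, Vim and Gab2 among the 9. These 5 were at 0 in all 4 CLP libraries of peritubular capillaries, so their differences rest on counts missing in 1 group. All 6 of these differences passed whichever mouse was left out (highest adjusted p 0.0106, for Gab2), while the count of 13 became 32 to 75 when any 1 mouse was left out. Against whole kidney, 7 of 13543 genes differed (0.0517%), among them Fgg, C3, Lrg1, Lcn2 and Apoc3 with a higher and Hbb-bt with a lower log2 fold change in peritubular capillaries. For the acute-phase genes the sham libraries of peritubular capillaries were at or near 0, whereas whole kidney of sham mice had 8.55 CPM of Fgg, 46.75 CPM of C3, 9.16 CPM of Lrg1 and 3.97 CPM of Lcn2. When each of the 8 mice was left out in turn, Hbb-bt always passed, Fgg failed only without CLP replicate 4 (adjusted p = 0.136) and C3 only without sham replicate 1 (0.104). Lrg1 failed without CLP replicate 4 or sham replicate 1, 2 or 4, Apoc3 without CLP replicate 2, 3 or 4 or sham replicate 1 or 3, and Lcn2 without any mouse other than CLP replicate 1. CLP means were 463.4 CPM in peritubular capillaries and 587.7 CPM in whole kidney for Fgg, and 243.5 and 345.3 CPM for Lcn2.

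Over time, no gene (0%) of 11772 had a CLP effect at 24 h that differed from that at 4 h by edgeR, with 1676 at an unadjusted p under 0.05 and 1474 called by DESeq2. This does not show that the effects at 4 and 24 h were equal. The 4 h libraries held 10950 to 13327 genes, against 5358 to 7811 in CLP and 6827 to 9044 in sham libraries of 24 h. The part of this gap in the result was not tested. Against 72 h, 1523 genes differed (12.9%), 1280 of them with a higher log2 fold change at 24 h. Beside that count, the CLP libraries of 72 h held only 2949 to 5595 genes, against 7137 to 9816 in the sham libraries of 72 h, and the part of this gap in the count was not tested. Cyp4a14, counted in every library of both times, averaged 3393 ± 1374 CPM in CLP mice and 314.5 ± 109.7 CPM in sham mice at 24 h, and 1177 ± 678 CPM in CLP mice and 86.1 ± 52.5 CPM in sham mice at 72 h (SD, n = 4 each). At 4 h it averaged 83.85 ± 88.14 CPM in CLP mice and 46.87 ± 36.67 CPM in sham mice. Saa1 averaged 4.619, 381 and 33.56 CPM in CLP mice at 4, 24 and 72 h, against 0.0518, 0 and 0 CPM in sham mice at these times.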

How the data were processed

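What the authors deposited is 1 table of raw counts for 34255 Ensembl genes, in whole numbers that were not normalised. Per the submitters' processing notes, the tools included STAR 2.7, HTSeq 0.13, featureCounts, SAMtools 1.9, FastQC 0.11.8 and MultiQC 1.7, and both GRCm38.p6 and GRCm39 are named, with no roles given. The build behind the counts, whether strand was used and whether duplicates were removed are not given in the sources used here. Totals of the 8 libraries ran from 4.24 to 16.3 M counts. Positions are from GENCODE M21 (GRCm38), matched by identifier.

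The 28 peritubular capillary libraries were fitted together in R 4.3.3 with edgeR 4.0.16 (filterByExpr by group, TMM scaling, robust quasi-likelihood F test, two-sided), so that all 7 groups of 4 share 1 estimate of the spread, and CLP at 24 h was set against sham at 24 h. CPM are counts per M of the TMM-scaled total, log2 fold changes are those of the fit, and their standard error is the size of the fold change divided by the square root of F. The fit was also run on simulated counts as a check of its coding, and no result here rests on that run. CLP effects were compared between compartments in fits with the mouse as a block (32 microdissected libraries, or 16 with whole kidney), and between times within the 28 libraries. Each of these 5 families was adjusted by Benjamini-Hochberg over all genes tested (11772 to 13635). CLP against sham at 24 h in whole kidney and in venules was fitted separately in the same way, on all libraries of that compartment. Those were adjusted over the 14936 and 13530 genes tested there. Library measures were compared by exact permutation. The floor is 3 counts per library, and a fold against a group at 0 divides the other group's mean CPM by it. Floors and counting intervals cover counting error only, as the sources name no molecular identifiers that would tell copied reads from separate molecules. The labels give separate mice as replicates. Same-numbered CLP and sham libraries did not deviate together (correlations -0.0587 to 0.0594 across 2163 genes), so numbers were not used as pairs.

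The members and the 26 pathway and 17 marker lists were chosen with earlier results of these data known. Named are all called genes, the 12 highest and 12 lowest genes counted in all 8 libraries at 20 CPM or more without overlap, members of the lists of small p or of the coagulation, adhesion and inflammation lists, the first 4 markers of each marker list, the 10 most abundant genes and the 6 smallest p of each difference. List members outside this rule (among them Cyp4a10, Cpt2, Pdia3, Acadm and Ppara) were chosen after their values were seen. A list is described by its counts and median, with no test. Some genes that this rule names, or that the counts include, are not reported here. The alternatives were other scalings, no filter on low counts, fewer libraries, DESeq2 1.42.0, replicate blocks and leaving out each library.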

Additional observations from a re-analysis of the deposited data

Results flagged for a closer look

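Among 63 groups of 4 libraries examined for a single library apart from the rest (the called genes, the 24 genes of largest difference without overlap, and the library totals and related measures), 7 had one by Dixon's ratio at its 95% critical value. For normally distributed values chance alone gives about 1 in 20. CPM on a linear scale need not be normal and some of these groups hold values at 0, so 7 of 63 is not read as an excess. In CLP libraries these were Malsu1 at 454 CPM, Arl1 at 135 CPM, Vnn1 at 1240 CPM and Selenoo at 311 CPM, each the highest of 4. In sham libraries they were Ucp2 at 51.9 CPM, Tesk1 at 312 CPM and Fgg at 0.478 CPM, also each the highest, and for Fgg this is 3 counts.

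The change with CLP in peritubular capillaries differed by a test of the difference itself for the following genes, given as differences of log2 fold changes. Against the mean of the other microdissected compartments they were Serpine2 (10.36), Hbb-bt (-10.99), Neurl1b (-11.90), Pkia (-12.65), Vim (-10.28) and Gab2 (-12.35). Against whole kidney they were Fgg (6.11), C3 (6.89), Lrg1 (7.42), Lcn2 (6.95) and Hbb-bt (-10.74). Against 72 h they were Psmb6 (14.47), Slc5a2 (12.12), Calb1 (12.25), Coasy (13.60), Paqr7 (13.21) and Slc3a2 (13.30). These sizes come from groups with libraries at or near 0 and depend on the prior count of the fit.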

How the results depend on the processing

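The count of 6 called genes stayed between 4 and 7 under RLE or TMMwsp scaling, without the filter on low counts, with the 8 libraries of 24 h or the 16 of 24 and 72 h alone, and with only genes counted in all 8 libraries, but the genes differed. Slc34a1 (adjusted p = 0.172) and Gm22748 (0.0989) failed without the filter, Gm22748 in the fit of 8 libraries (0.354), Lcn2 (0.119) and Malsu1 (0.412) in that of 16 (in the fit of 8 and among genes counted in all 8 libraries both were not tested), and Slc34a1 (0.216) among genes counted in all 8 with 8 libraries fitted. That fit and the replicate block in 8 libraries were added after seeing the data. Leaving out each 24 h library in turn gave 2 to 11 calls, with 2 without sham replicate 1, 3 or 4, 3 without sham replicate 2 and 11 without CLP replicate 3. DESeq2 called 1830 genes, 1474 for the difference from 4 h, 3711 from 72 h, 2326 from the other microdissected compartments and 830 from whole kidney; the cause was not tested.

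The replicate number as a block gave 7 calls in 28 libraries (Cyp4a14 and mt-Nd2 gained, Malsu1 lost at adjusted p = 0.0736) and 16 in 8 libraries, with 1 gene for the difference from 4 h and 611 for that from 72 h. Same-numbered libraries did not deviate together, so the numbers are no pairs. Differences from the other microdissected compartments numbered 42 without the filter, 72 without the mouse block and 32 to 75 with a mouse left out. Those from whole kidney numbered 3 without the mouse block and 3 to 13 with a mouse left out. Those from 4 h numbered 0 or 1, and those from 72 h 1131 to 1957. Of the single genes followed through these settings, 0 changed sign. Depth limits genes at or near 3 counts, and for the rest the spread between libraries limits the precision. The biological coefficient of variation, a measure of that spread, was 1.94 over all genes tested in the fit of 28 libraries. It was 1.07 when only genes counted in all 8 libraries were fitted.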
